A study of Homo sapiens with 8 samples.

Results

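The genes described here encode the nuclear subunits of the oxidative phosphorylation machinery, and their transcription was followed by PRO-seq, which counts the positions of engaged RNA polymerase, in HCT116 colorectal carcinoma cells. Members were taken by symbol: NDUFA, NDUFB, NDUFC, NDUFS or NDUFV followed by a digit, the SDH genes A to D, UQCR, COX4 to COX8 followed by a letter, and ATP5, leaving out pseudogenes, read-through genes and assembly factors. Of 82 such symbols, 76 had more than 0.5 gene body CPM (read counts scaled to the library total) in at least 2 libraries, out of 16686 gene bodies tested. Of these 76, 35 belong to complex I, 4 to complex II, 8 to complex III, 13 to complex IV, and 13 to ATP synthase, while ATP5S and ATP5SL carry an ATP5 symbol without being structural subunits. The remaining member is NDUFA4L2, a paralog of the complex IV subunit NDUFA4, and it is set against the other 75 throughout.

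The study compared wild-type (WT) HCT116 cells with HCT116 cells lacking functional HIF1A (HIF1A-/-), a line made by disrupting part of the HIF1A gene through homologous recombination. Cells of either genotype were kept in normoxia or exposed to hypoxia, 1% O2 for 90 min, and DMSO was present in all 4 groups as the vehicle. Each group had 2 libraries from independent biological duplicates, which gives 8 libraries. Polymerase was counted in a 551 bp region around the start site (TSS region) and in the gene body further downstream, from 1 kb after the start to the end of the gene.

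Mitochondria make most of their ATP by passing electrons from NADH through complex I, or from succinate through complex II, on to ubiquinone, then through complex III and cytochrome c to complex IV, which reduces oxygen. The proton gradient built up on the way drives ATP synthase. Most subunits are encoded in the nucleus and the rest in mitochondrial DNA, and the nuclear genes are widely described as targets of the transcription factors NRF1 and GABP, the latter an ETS family factor. HIF1A is known to lower respiration through genes such as PDK1, a kinase that switches off pyruvate dehydrogenase, and NDUFA4L2 is known as a HIF1A target whose product lowers complex I activity.

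Gene body totals ran from 18125234 to 23622392 reads per library, and TSS totals from 2783581 to 5966348. The 76 members took 56626 to 70593 gene body reads of each library, which is 0.289% to 0.336% of the total. HIF1A itself had 142 ± 11.2 gene body CPM in the normoxic WT libraries, 147 ± 24.95 in the hypoxic WT libraries, 149 ± 11.4 in the normoxic HIF1A-/- libraries and 169 ± 4.31 in the hypoxic HIF1A-/- libraries (SD, n = 2), with adjusted p of 0.590 or more in all 5 comparisons, so reads over the disrupted gene do not check the knockout. Among markers of cell type, 7 of 8 intestinal epithelial genes were tested and the summed level of the 8 was 102 to 173 RPKM (CPM per kilobase of gene body) per library, while CDX1 did not pass the filter and VIL1 was at 0.0216 RPKM or less. Immune markers summed to at most 0.0970 RPKM, endothelial markers to 0.218, and fibroblast markers to 1.16 to 3.10, nearly all of it COL1A1.

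The stretches below are the 250 bases upstream of the start site used by the counts, read from GRCh37 on the strand of the gene. They are shown for NDUFA4L2 and its paralog NDUFA4, for SDHD as a member that holds letters known to be bound by NRF1 and ETS factors, for NDUFS3, whose TSS region is described later, and for PDK1, which is not a member but responded to hypoxia. Capitals mark ACGTG, the usual core of hypoxia response elements, or its variant form GCGTG, and further GCATGCGC, a core of NRF1 elements, or CCGGAAGT, a core of ETS elements. All were searched on both strands, so their reverse complements are in capitals too.
NDUFA4L2, chr12:57634546-57634795, minus strand: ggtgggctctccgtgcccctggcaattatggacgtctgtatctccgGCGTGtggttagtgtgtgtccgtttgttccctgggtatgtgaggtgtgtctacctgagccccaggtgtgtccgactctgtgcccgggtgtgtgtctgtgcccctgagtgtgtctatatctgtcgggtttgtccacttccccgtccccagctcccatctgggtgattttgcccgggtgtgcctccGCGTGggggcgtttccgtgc
NDUFA4L2 upstream of its canonical annotated start, chr12:57630888-57631137, minus strand: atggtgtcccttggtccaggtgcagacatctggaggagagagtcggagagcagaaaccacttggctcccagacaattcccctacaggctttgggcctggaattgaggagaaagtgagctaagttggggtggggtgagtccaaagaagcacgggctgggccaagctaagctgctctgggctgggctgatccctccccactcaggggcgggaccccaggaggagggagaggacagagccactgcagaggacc
NDUFA4, chr7:10979814-10980063, minus strand: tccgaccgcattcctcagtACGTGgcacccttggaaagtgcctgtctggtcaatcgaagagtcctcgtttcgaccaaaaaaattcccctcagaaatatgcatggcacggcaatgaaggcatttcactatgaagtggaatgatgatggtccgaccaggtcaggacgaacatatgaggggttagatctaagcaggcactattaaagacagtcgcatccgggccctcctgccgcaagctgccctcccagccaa
SDHD, chr11:111957297-111957546, plus strand: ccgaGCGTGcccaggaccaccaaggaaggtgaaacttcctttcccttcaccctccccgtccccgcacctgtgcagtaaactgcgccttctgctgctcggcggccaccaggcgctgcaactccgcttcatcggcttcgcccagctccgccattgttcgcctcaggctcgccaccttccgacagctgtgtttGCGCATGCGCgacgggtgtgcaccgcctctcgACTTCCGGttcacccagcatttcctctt
NDUFS3, chr11:47600311-47600560, plus strand: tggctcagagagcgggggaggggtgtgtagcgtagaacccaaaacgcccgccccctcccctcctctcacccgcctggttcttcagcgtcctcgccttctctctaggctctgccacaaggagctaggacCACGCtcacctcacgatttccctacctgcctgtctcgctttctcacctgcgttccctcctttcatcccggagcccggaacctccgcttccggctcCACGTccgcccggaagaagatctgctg
PDK1, chr2:173420446-173420695, plus strand: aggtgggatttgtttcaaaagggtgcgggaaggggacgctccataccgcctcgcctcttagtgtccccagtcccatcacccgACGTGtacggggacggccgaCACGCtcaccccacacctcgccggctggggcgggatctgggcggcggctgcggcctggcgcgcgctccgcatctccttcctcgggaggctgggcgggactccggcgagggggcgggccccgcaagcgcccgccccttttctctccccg

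NDUFA4L2 had GCGTG at 204 and at 20 bases upstream of the start used by the counts, and no match upstream of its canonical start. NDUFA4 had ACGTG at 231 bases upstream, and PDK1 had ACGTG at 168 bases and GCGTG on the other strand at 148. SDHD held GCATGCGC on both strands, at 60 and 58 bases upstream in overlapping matches, and CCGGAAGT on the other strand at 28. Over windows of 300 bases, from 250 upstream of the start to 50 downstream, ACGTG or GCGTG was found on either strand in 47 of 76 members (61.8%) and in 58.2% of the genes tested. GCATGCGC was found in 13 members (17.1%) against 4.47% of the genes tested, and CCGGAAGT in 10 (13.2%) against 6.08%. The median GC content of the members' windows was 60.2%, against 63.0% for the genes tested, with 60.0% at NDUFA4L2. These matches describe letters in a window and not binding.

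The start used by the counts lay within 100 bp of an annotated start for 68 of 76 members. For NDUFA4L2 (GRCh37 chr12, minus strand) it was at 57634545, 47 bp from an annotated start, but the canonical start lay 3658 bp further downstream, inside the region from 57628685 to 57633544 that was counted as gene body. Polymerase that starts at the canonical promoter was therefore counted in the NDUFA4L2 gene body, and the TSS region covered an upstream promoter. The same held for ATP5A1, whose canonical start lay 5937 bp downstream of the counted start, inside its gene body. NDUFA5 (chr7, minus strand) was counted from a start 43747 bp upstream of the nearest annotated start, and COX7A2L from one 7740 bp upstream of the canonical start. NDUFA5, COX7A2L and COX6B2 had 0 to 3 TSS reads in every library and were not tested there, which left 73 members with both regions.

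Members were transcribed above the typical gene. The median member had a gene body level of 3.44 RPKM, the mean over the 4 groups, against 1.31 RPKM for all gene bodies tested, and 80.3% of all gene bodies tested lay below the median member. Only 5 members lay below the median of all gene bodies, and NDUFA4L2 was one of them. The members were also short, with a median gene body of 8.16 kb against 25.1 kb, and they were spread over 21 chromosomes.

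**Figure D1:**
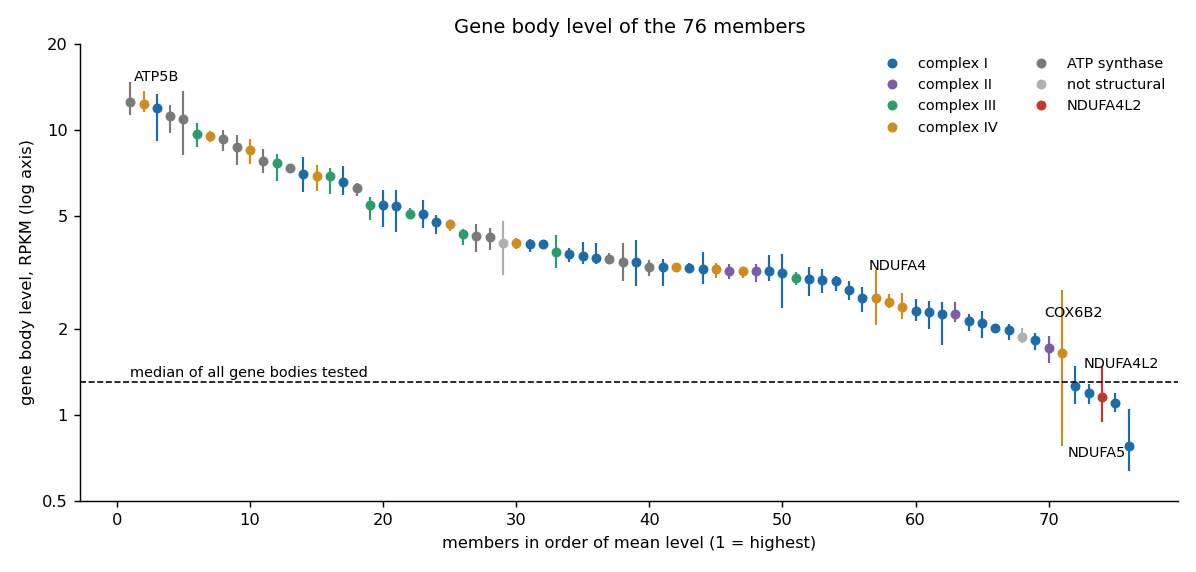
Gene body level of each of the 76 members in RPKM on a log axis, in order of the mean over the 4 groups. Points are that mean, bars run from the lowest to the highest group mean, colours give the complex, and the dashed line is the median of all gene bodies tested, 1.31 RPKM. ATP synthase genes lie mostly at the left, NDUFA4L2 is 74th, and COX6B2 has the widest bar.

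ATP synthase genes had the highest median level of the complexes, 7.36 RPKM (13 genes), followed by complex III with 5.27 (8 genes), complex IV with 3.29 (13), complex I with 3.15 (35) and complex II with 2.73 (4). The 5 highest members were ATP5B, the catalytic beta subunit of ATP synthase, at 12.5 RPKM, COX7C, a small complex IV subunit, at 12.3, NDUFB10, a membrane arm subunit of complex I, at 11.9, and the ATP synthase subunits ATP5D at 11.2 and ATP5I at 10.9. Their group means overlapped, so no order among these 5 goes beyond their spread. At the other end stood NDUFA5 at 0.776 RPKM, NDUFA9 at 1.10, NDUFA4L2 at 1.16, NDUFA12 at 1.19 and NDUFS4 at 1.26, whose group means also overlapped with those of their neighbours in the order. NDUFA5, NDUFA9, NDUFA12 and NDUFS4 all encode complex I subunits and have long counted gene bodies, of 63.7, 37.5, 31.4 and 122 kb. The NDUFA5 count starts 43747 bp upstream of the nearest annotated start, so its length and RPKM are not those of the annotated gene.

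Polymerase density in the TSS region, per base, was 43.3 to 57.2 times that in the gene body for the median member across libraries, against 44.4 to 49.1 for the median of all genes with both regions. Complex II genes had higher ratios, with medians of 85.8 to 143, and ATP synthase genes lower ones, 23.2 to 33.0. NDUFA4L2 was lower than the median of either complex I or complex IV in all 8 libraries, at 12.3 to 29.4. Its counted gene body holds the canonical start and its TSS region an upstream promoter, so this ratio is not comparable with the others. The members as a whole thus lay near other genes in this ratio, while the complexes had unlike medians.

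Several subunits exist as paired genes, one of them known for testis, muscle, lung or hypoxia. In these cells the widely used form was transcribed and the restricted form mostly was not. COX4I1 was at 8.51 RPKM, while its partner COX4I2, known for lung and for induction by low oxygen, had 0 to 4 gene body reads per library. COX7A2 was at 4.68 RPKM and COX7A1, the heart and muscle form, had 0 reads in all 8 libraries, where a count of 0 allows up to 3 reads per library. COX7B was at 2.39 RPKM, against 0 to 9 reads for COX7B2. The related COX7A2L, which takes part in joining complexes III and IV, was at 2.49 RPKM. The genes ATP5G1, ATP5G2 and ATP5G3, which encode the same mature subunit c of ATP synthase, were all transcribed, at 8.70, 6.27 and 7.36 RPKM. COX6A1 and COX8A were at 3.996 and 9.49 RPKM, and their muscle and testis partners were not analysed here.

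COX6B2, the testis form of COX6B1, was the exception among the restricted forms. It had 1.65 RPKM in the gene body against 3.20 for COX6B1, but 0 to 2 reads in its TSS region in any library. The nearest upstream gene on the same strand, FAM71E2, ended 93 bp before its start and had 0.0483 to 0.296 CPM, where COX6B2 had 1.68 to 14.0 CPM. Whether the COX6B2 gene body reads came from polymerase that started at its own promoter was not tested. The remaining symbols that did not pass the filter were ATP5E, ATP5J2 and NDUFC2, whose gene bodies lie wholly within read-through genes on the same strand (SLMO2-ATP5E, ATP5J2-PTCD1 and NDUFC2-KCTD14) and had 0 reads in every library. For SDHA, which has near-identical copies elsewhere in the genome, reads of low mapping quality were removed by the authors, so its level is uncertain.

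Hypoxia against normoxia in WT cells asks whether respiratory genes respond within 90 min of low oxygen. In such bulk libraries fewer cells that transcribe a gene and less engaged polymerase per cell cannot be told apart. At an FDR of 10%, edgeR called none of the 76 member gene bodies, in either direction, where it called 0.431% of all 16686 gene bodies. At an unadjusted p below 0.05 there were 0 higher and 1 lower, and DESeq2 called none. The 95% interval of the log2 fold change lay within a 2-fold change both ways for 68 members, and its upper limit lay below a 2-fold rise for 75 of 76. The exception was COX6B2, at 0.56 with an interval from -0.50 to 1.61.

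Although edgeR without the block called no single gene, most members had lower values in hypoxia. In WT cells 66 of 76 members (86.8%) had a log2 fold change below 0, with a median of -0.17, against 52.5% of all gene bodies and a median of -0.02. All 4 complex II genes and all 8 complex III genes lay below 0, with medians of -0.18 and -0.21, as did 31 of 35 complex I genes (median -0.20), 12 of 13 ATP synthase genes (-0.16) and 10 of 13 complex IV genes (-0.08). NDUFA4L2 lay above 0, at 0.16. The 2 libraries of one group lay wholly below those of the other for 20 members (26.3%) and wholly above for 5, where all gene bodies gave 17.3% and 19.8%. Within the pairs of equal replicate number the members' medians were -0.16 and -0.18, and 54 members (71.1%) were lower in both pairs, against 38.0% of all gene bodies.

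A shift of that size was also found between replicates. Members were lower in replicate 2 than in replicate 1 by a median of 0.20 to 0.29 on the log2 scale within each of the 4 groups, which held for 63 to 67 of 76 members, whereas the medians of all gene bodies were at most 0.02 from 0. The TSS regions of the members showed no such shift, with medians of -0.02 to 0.06. The members' median in WT hypoxia was -0.05 without WT normoxia replicate 1, -0.26 without WT normoxia replicate 2, -0.28 without WT hypoxia replicate 1 and -0.04 without WT hypoxia replicate 2. Other genes of like level were shifted too: at 2 to 4 RPKM the median of all gene bodies was -0.10 with 68.6% below 0, and 37 members of that range had a median of -0.18. At 4 to 8 RPKM the medians were -0.12 for all gene bodies and -0.12 for 19 members, and at 8 RPKM or more -0.10 for all and -0.26 for 10 members. Across 5 ranges of gene body length the medians of all gene bodies were -0.08 to 0.01, and those of the members -0.30 to -0.13. The part of level, length and replicate in the members' shift was not tested.

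**Figure D2:**
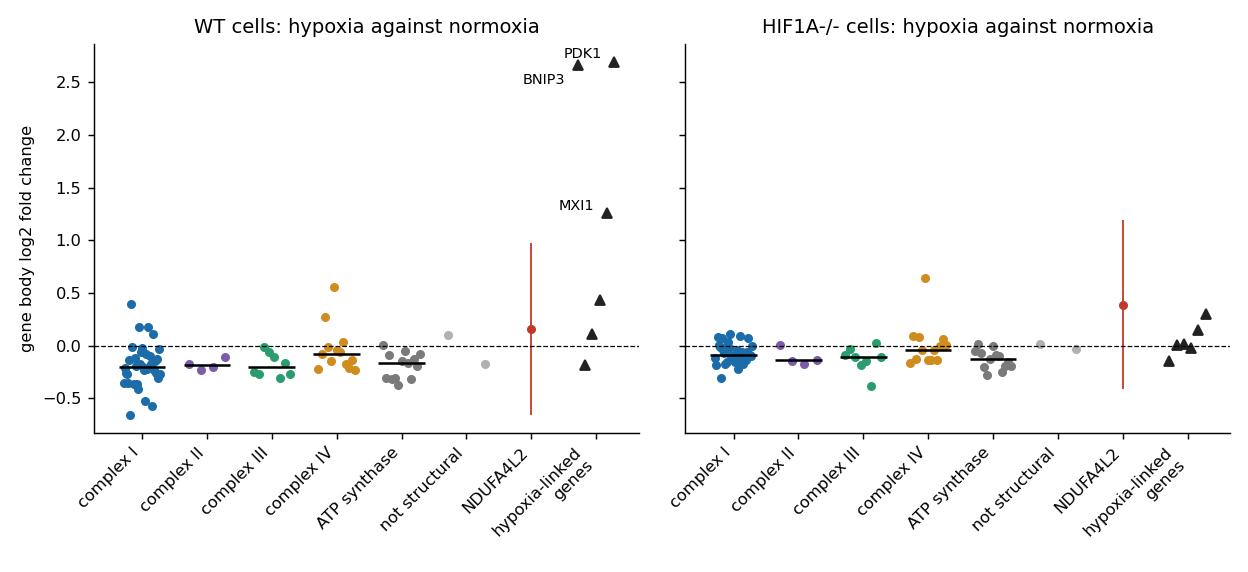
Gene body log2 fold change of hypoxia against normoxia for every member, by complex, in WT and HIF1A-/- cells. Circles are genes, black bars the medians of groups with more than 2 genes, the red line the 95% interval of NDUFA4L2, and triangles the 6 hypoxia-linked genes tested. PDK1 and BNIP3 lie above 2.5 in WT cells while members sit between -0.66 and 0.56.

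Among members whose groups did not overlap, those of lowest p on either side show how small the differences were. NDUFA3, a small membrane subunit of complex I, had 11.6 and 11.3 gene body CPM in the normoxic WT libraries and 7.69 and 7.11 in the hypoxic ones. Both hypoxic libraries lay well below both normoxic ones, with a log2 fold change of -0.66 ± 0.22 (SE) and an adjusted p of 0.897. NDUFA13, also known as GRIM19, had 41.7 and 36.1 CPM against 33.0 and 29.2 (log2 fold change -0.35 ± 0.16), and NDUFA12 had 40.6 and 40.2 against 33.0 and 35.4 (-0.27 ± 0.14). On the other side were COX6B2, with 6.67 and 8.44 CPM against 8.69 and 14.0 (0.56 ± 0.46), NDUFA5, with 46.4 and 52.9 against 60.4 and 73.3 (0.40 ± 0.24), and the complex I subunit NDUFC1, with 61.7 and 71.7 against 73.7 and 79.9 (0.17 ± 0.14). None of these had an adjusted p below 0.897.

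With the replicate number as a block, edgeR called 5.51% of all gene bodies for WT hypoxia, and 3 of 76 members (3.95%), all of them complex I genes and all lower. They were NDUFA3 (-0.66, adjusted p = 0.0823), NDUFS3 (-0.58, adjusted p = 0.0820) and NDUFA7 (-0.37, adjusted p = 0.0985). Without the block, their values when single libraries were left out ran from -0.72 to -0.58 for NDUFA3. For NDUFS3 they ran from -1.01 without WT hypoxia replicate 1 and -0.87 without WT normoxia replicate 2 to -0.23 without WT hypoxia replicate 2 and -0.20 without WT normoxia replicate 1. NDUFA7 was at -0.17 without WT normoxia replicate 1 and at -0.20 without WT hypoxia replicate 2. NDUFS3, a core subunit of the hydrophilic arm, had 22.8 and 14.7 CPM in normoxia and 16.2 and 9.61 in hypoxia, so its groups overlapped while both pairs were lower in hypoxia. Over both directions the members' share was below that of all gene bodies. By direction the block called 0 members higher and 3 lower, against 623 higher and 296 lower of all 16686 gene bodies. The share of lower calls alone was thus larger among the members than among all gene bodies.

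In HIF1A-/- cells hypoxia gave no call among the members or among all gene bodies (0%) by edgeR at an FDR of 10%, and 0 members had an unadjusted p below 0.05. With the block and with DESeq2 the members' count was again 0. Of 76 members, 59 lay below 0, with a median log2 fold change of -0.09 against 0.00 for all gene bodies, and 49 were lower in both pairs (64.5% against 34.4%). The libraries of the groups did not overlap for 11 members that were lower and 2 that were higher, against 9.15% and 14.4% of all gene bodies. The median was 0.05 without HIF1A-/- normoxia replicate 1, -0.20 without HIF1A-/- normoxia replicate 2, -0.15 without HIF1A-/- hypoxia replicate 1 and 0.02 without HIF1A-/- hypoxia replicate 2. Within the pairs of equal replicate number the medians were -0.12 and -0.06. The smallest p among members that did not overlap belonged to SDHC, a membrane anchor of complex II, with 91.8 and 95.6 CPM in normoxia and 82.7 and 87.8 in hypoxia (-0.18 ± 0.12). ATP5F1, the stalk subunit b of ATP synthase, was at -0.28 ± 0.20 and the complex I subunit NDUFS1 at -0.17 ± 0.13, while the only higher ones were NDUFB11 at 0.11 ± 0.22 and NDUFA12 at 0.01 ± 0.14.

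How far WT and HIF1A-/- cells differed in the size of their hypoxia response, tested as an interaction, was called for none of 76 members and for 0.0539% of all gene bodies. DESeq2 and the block called no member either. One member, NDUFA3, had an unadjusted p below 0.05, at -0.73 ± 0.31 and an adjusted p of 1.0. The members' median difference, WT response minus HIF1A-/- response, was -0.08 against -0.02 for all gene bodies, and it ranged from -0.21 to 0.06 when single libraries were left out. It was above 0 without WT normoxia replicate 1 (0.04), WT hypoxia replicate 2 (0.06), HIF1A-/- normoxia replicate 2 (0.05) or HIF1A-/- hypoxia replicate 1 (0.04). A lower response in WT cells than in HIF1A-/- cells was thus not shown for the members.

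Members can be set beside genes that act on respiration from outside the complexes. Of 7 hypoxia-linked genes, 6 were tested, and hypoxia raised PDK1 and BNIP3, a mitophagy receptor, in WT cells. PDK1 had 31.1 and 39.1 gene body CPM in the normoxic WT libraries, 204 and 261 in the hypoxic WT libraries, 19.3 and 26.2 in the normoxic HIF1A-/- libraries and 26.8 and 30.5 in the hypoxic HIF1A-/- libraries. Both WT hypoxic libraries stood far above the other 6, with a log2 fold change of 2.70 ± 0.19 in WT cells (adjusted p = 0.00389) and an interaction of 2.40 ± 0.26 (adjusted p = 0.0616). BNIP3 rose by 2.67 ± 0.23 (adjusted p = 0.00633), with an interaction of 2.81 ± 0.32 (adjusted p = 0.0616). MXI1, a MYC antagonist, was at 1.26 ± 0.24 (adjusted p = 0.141) and was called with the block (adjusted p = 0.000669). In hypoxia PDK1, BNIP3 and MXI1 were all lower in HIF1A-/- than in WT cells, by -3.03, -2.82 and -1.32 on the log2 scale.

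Assembly factors, which build the complexes without staying in them, gave few calls as well. Of 49 listed, 46 were tested, and hypoxia in WT cells gave 0 calls by edgeR without the block, 1 higher with it, and a median log2 fold change of -0.13, with 33 below 0. In hypoxia SDHAF3, an assembly factor of complex II, was lower in HIF1A-/- than in WT cells (-0.57 ± 0.11, adjusted p = 0.0457) and was the one assembly factor called without the block, whereas with it 3 were higher and 6 lower. Of 13 regulators of respiratory genes, none was called in WT hypoxia and TFB1M, which methylates mitochondrial ribosomal RNA, was lower in HIF1A-/- than in WT cells in hypoxia (-0.81 ± 0.15, adjusted p = 0.0318). TFB1M had 75.5 and 84.2 CPM in WT normoxia and 107 and 138 in WT hypoxia, and this difference of 0.59 ± 0.15 was called with the block (adjusted p = 0.0473) and by DESeq2 but not without the block (adjusted p = 0.436). CYC1, CYCS and NDUFAB1, respiratory genes that the symbols leave out, were all below 0 in WT hypoxia, with a median of -0.33 and 0 calls without the block. With it NDUFAB1 was called lower (-0.43, adjusted p = 0.0726).

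NDUFA4L2, like the other 75 members, was not called in any comparison of the reported fit. Its gene body had 3.91 and 5.30 CPM in the normoxic WT libraries, 5.48 and 5.00 in the hypoxic WT libraries, 3.77 and 7.0 in the normoxic HIF1A-/- libraries and 5.56 and 8.88 in the hypoxic HIF1A-/- libraries. The WT libraries overlapped, and so did the HIF1A-/- ones. Hypoxia gave a log2 fold change of 0.16 ± 0.35 in WT cells (95% interval -0.66 to 0.97, adjusted p = 0.931). In the knockout it gave 0.39 ± 0.35 (interval -0.42 to 1.19, adjusted p = 1.0). The difference of the responses was -0.23 ± 0.50, with an interval from -1.37 to 0.91. The interval in WT cells does not reach the 2.70 of PDK1, but at 81 to 118 gene body reads per WT library it holds lower as well as higher levels. Without WT normoxia replicate 1 the WT response was -0.03. The HIF1A-/- response ran from 0.04 without HIF1A-/- normoxia replicate 1 and 0.06 without HIF1A-/- hypoxia replicate 2 to 0.66 without HIF1A-/- hypoxia replicate 1 and 0.85 without HIF1A-/- normoxia replicate 2.

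The TSS region of NDUFA4L2, at the upstream promoter, had 12.6 and 11.8 CPM in the normoxic WT libraries, 11.2 and 11.1 in the hypoxic WT libraries, 12.6 and 9.79 in the normoxic HIF1A-/- libraries and 16.9 and 21.5 in the hypoxic HIF1A-/- libraries. The HIF1A-/- hypoxic libraries were the highest, above the other 6. Under hypoxia it was at -0.11 ± 0.32 in WT cells and, with an adjusted p of 1.0, at 0.79 ± 0.32 in the knockout, and the difference of the responses was -0.90 (interval -1.89 to 0.09). In hypoxia the TSS region was at 0.78 ± 0.31 in HIF1A-/- against WT cells (adjusted p = 0.309), a comparison that passed with the block (0.78, adjusted p = 0.0911). STAC3, the next gene upstream on the same strand, ended 2690 bp away and its gene body was at 0.28 in WT hypoxia (adjusted p = 0.897). Its group means were 2.56 to 3.32 gene body RPKM, above those of NDUFA4L2 at 0.948 to 1.49. Whether polymerase running past the end of STAC3 added to the NDUFA4L2 counts was not tested.

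NDUFA4 was transcribed above NDUFA4L2 in each group, and the ratio of the genes was not tested. Per base of gene body, NDUFA4 was 3.41 times NDUFA4L2 in the normoxic WT libraries, 2.61 times in the hypoxic WT libraries, 1.86 times in the normoxic HIF1A-/- libraries and 1.44 times in the hypoxic HIF1A-/- libraries. The single normoxic WT libraries gave 4.12 and 2.88 and the hypoxic ones 2.52 and 2.71, while the normoxic HIF1A-/- libraries gave 2.99 and 1.25 and the hypoxic ones 1.91 and 1.146. The normoxic groups thus overlapped. NDUFA4 had 24.0 and 22.7 gene body CPM in the normoxic WT libraries, 20.5 and 20.2 in the hypoxic WT libraries, 16.8 and 13.1 in the normoxic HIF1A-/- libraries and 15.8 and 15.1 in the hypoxic HIF1A-/- libraries. All 4 HIF1A-/- libraries lay below all 4 WT libraries. Its TSS region did not follow, with 157 to 220 CPM in WT and 155 to 198 CPM in HIF1A-/- cells, which overlapped.

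**Figure D3:**
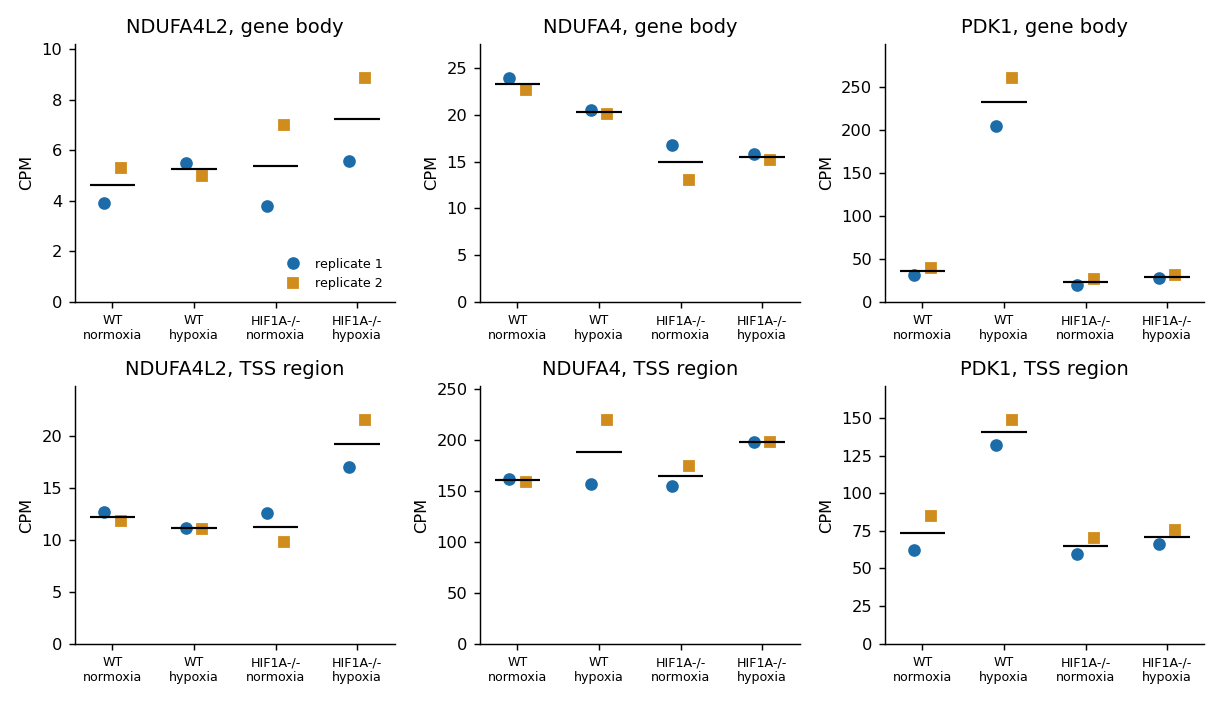
CPM (axes from 0) in each library for NDUFA4L2, NDUFA4 and PDK1, with the gene body in the top row and the TSS region in the bottom row. Circles are replicate 1, squares replicate 2, and bars the mean of both. PDK1 stands out in WT hypoxia, the NDUFA4 gene body is lower in HIF1A-/- cells, and NDUFA4L2 is highest in HIF1A-/- hypoxia.

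HIF1A-/- against WT cells in normoxia compares the lines when oxygen is plentiful. In this and the hypoxic comparison, loss of HIF1A and any other difference between the lines cannot be told apart. No member gene body was called by edgeR, against 1.78% of all gene bodies, with 0 higher and 2 lower at an unadjusted p below 0.05 and 0 by DESeq2. The median log2 fold change was -0.05 against -0.01, and 49 members lay below 0. This median was 0.05 without WT normoxia replicate 1, 0.08 without HIF1A-/- normoxia replicate 2 and -0.16 without HIF1A-/- normoxia replicate 1. Groups did not overlap for 19 members that were lower and 4 that were higher, where all gene bodies gave 17% and 16%.

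With the block, 3 of 76 members (3.95%) were called in normoxia, fewer than the 10.3% of all gene bodies. NDUFA4 was lower, at -0.64 ± 0.20 without the block (adjusted p = 0.304) and -0.65 with it (adjusted p = 0.0352). COX6B2 was lower too, with 6.67 and 8.44 CPM in WT and 1.68 and 4.73 CPM in HIF1A-/- cells, at -1.26 ± 0.48 without the block (adjusted p = 0.450) and -1.34 with it (adjusted p = 0.0194). Without the block it was at -0.69 without HIF1A-/- normoxia replicate 1 and at -2.10 without HIF1A-/- normoxia replicate 2, and NDUFA4 was at -0.41 without the latter. ATP5SL, an assembly protein of complex I despite its symbol, was higher, with 22.9 and 17.4 CPM in WT and 30.5 and 25.2 CPM in HIF1A-/- cells, at 0.47 ± 0.24 without the block (adjusted p = 0.666) and 0.47 with it (adjusted p = 0.0511). It was at 0.28 without WT normoxia replicate 2 and at 0.30 without HIF1A-/- normoxia replicate 1. NDUFS4 was at -0.25 ± 0.13, COX5B at 0.24 ± 0.23 and SDHC at 0.14 ± 0.12, none of them called either way.

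In hypoxia HIF1A-/- against WT cells gave 0 called members in the reported fit as well, against 4.26% of all gene bodies, with 2 higher and 4 lower at an unadjusted p below 0.05. DESeq2 called 2 members lower and 8.01% of all gene bodies. The members were split evenly, with 41 above 0 and 35 below and a median of 0.04 against 0.00. That median was -0.10 without WT hypoxia replicate 2, -0.10 without HIF1A-/- hypoxia replicate 1, 0.16 without WT hypoxia replicate 1 and 0.13 without HIF1A-/- hypoxia replicate 2. Groups did not overlap for 16 members that were higher and 18 that were lower, close to the 23.6% and 22.6% of all gene bodies.

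The block called 14 of 76 members in hypoxia, 8 higher and 6 lower (18.4%), again below the share of all gene bodies, 28.2%. The higher ones were the complex I genes NDUFA3, NDUFA7, NDUFB9, NDUFB10 and NDUFS8, UQCR11 of complex III, ATP5I and ATP5SL. The lower ones were the complex I genes NDUFA5 and NDUFS4, the complex IV genes NDUFA4 and COX6B2, UQCRB of complex III, and ATP5A1, the alpha subunit of ATP synthase. No complex moved as a whole in one direction: complex I, complex III and ATP synthase each had called genes on both sides. In complex IV the called genes were both lower, and of its 13 genes 9 lay below 0 and 4 above. Of the values without the block, several moved by over 1.5 times when 1 library was left out. NDUFB10 (0.54) ran from 0.12 without HIF1A-/- hypoxia replicate 1 and 0.19 without WT hypoxia replicate 2 to 0.87 without HIF1A-/- hypoxia replicate 2 and 1.01 without WT hypoxia replicate 1. NDUFS8 (0.39) was at 0.03 without WT hypoxia replicate 2, 0.25 without HIF1A-/- hypoxia replicate 1 and 0.88 without WT hypoxia replicate 1. NDUFA7 (0.34), NDUFB9 (0.34) and UQCR11 (0.30), all of them above 0 throughout, had their lowest values at 0.11, 0.13 and 0.13, the last without WT hypoxia replicate 2 and the others without HIF1A-/- hypoxia replicate 1. Their highest values were 0.54 without WT hypoxia replicate 1 or HIF1A-/- hypoxia replicate 2, 0.51 without HIF1A-/- hypoxia replicate 2 and 0.50 without WT hypoxia replicate 1. Without HIF1A-/- hypoxia replicate 1, ATP5I was at 0.31, ATP5SL at 0.40, NDUFA5 at -0.48 and ATP5A1 at -0.19.

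NDUFS4, a complex I subunit known from Leigh syndrome, had the smallest adjusted p of the members without the block. It had 157 and 170 CPM in the normoxic WT libraries, 162 and 199 in the hypoxic WT libraries, 128 and 146 in the normoxic HIF1A-/- libraries and 124 and 142 in the hypoxic HIF1A-/- libraries, so each HIF1A-/- library lay below each WT library. The log2 fold change in hypoxia was -0.45 ± 0.13 (adjusted p = 0.141), called by DESeq2 (adjusted p = 0.0695) and with the block (adjusted p = 0.0109). NDUFA5 had 60.4 and 73.3 CPM in WT hypoxia and 31.7 and 49.5 in HIF1A-/- hypoxia, at -0.74 ± 0.24 (adjusted p = 0.191), called by DESeq2 (adjusted p = 0.0824) and with the block (adjusted p = 0.00547). Its count covers 63.7 kb, most of it upstream of the annotated gene start. COX6B2 was at -1.17 ± 0.46 (adjusted p = 0.279, with the block 0.0134) and NDUFA4 at -0.40 ± 0.20 (adjusted p = 0.384, with the block 0.0854).

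Among the higher ones, ATP5SL had 19.5 and 16.9 CPM in WT hypoxia and 31.3 and 24.9 in HIF1A-/- hypoxia, at 0.62 ± 0.24 (adjusted p = 0.267, with the block 0.0110). NDUFA3 had 7.69 and 7.11 CPM against 11.02 and 10.3, at 0.52 ± 0.22 (adjusted p = 0.311, with the block 0.0583). In normoxia the NDUFA3 libraries were ordered the other way, at 11.6 and 11.3 CPM in WT against 10.8 and 8.94 in HIF1A-/- cells. ATP5I, a small subunit of ATP synthase, was at 0.54 ± 0.31 (adjusted p = 0.449, with the block 0.0916). The replicates of one number deviated together, which the block takes out.

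**Figure D4:**
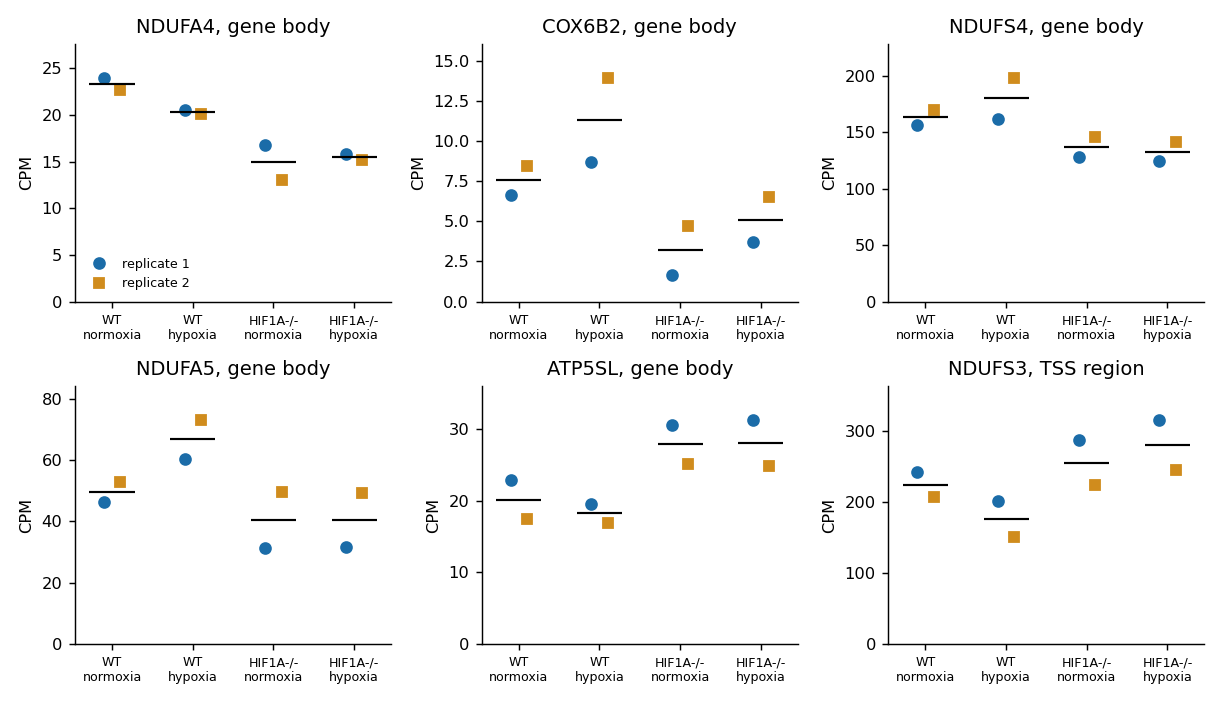
CPM (axes from 0) in each library for 5 member gene bodies and the TSS region of NDUFS3, chosen after their values were seen. Circles are replicate 1, squares replicate 2, and bars the mean of both. NDUFA4, COX6B2, NDUFS4 and NDUFA5 are lower in HIF1A-/- hypoxia than in WT hypoxia, ATP5SL and NDUFS3 are higher, and in each panel the replicates differ in the same direction in all 4 groups.

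In the TSS regions edgeR without the block called no member either. Hypoxia in WT cells gave 0 of 73 calls by edgeR, against 0.046% of all 15212 TSS regions, with 1 higher and 0 lower at an unadjusted p below 0.05, and DESeq2 gave none. The median log2 fold change was 0.03 against -0.02, with 40 members above 0 and 33 below, so the lower values of the gene bodies were not seen here. Complex II (4 of 4) and complex IV (9 of 11) lay mostly above 0, where 48.0% of all TSS regions did. In complex I 18 of 34 lay above 0, while 5 of 8 in complex III and 7 of 13 ATP synthase genes lay below. UQCRH, the hinge subunit of complex III, had 137 and 129 CPM in WT normoxia and 169 and 181 in WT hypoxia (0.42 ± 0.15, adjusted p = 0.922). COX6C was at 0.46 ± 0.21 and NDUFA12 at 0.30 ± 0.15, while ATP5G3 was at -0.28 ± 0.14, NDUFA10 at -0.57 ± 0.33 and NDUFS3 at -0.32 ± 0.19, all with an adjusted p of 0.922.

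In HIF1A-/- cells hypoxia gave 0 called members and 0% of all TSS regions, with 1 member, NDUFA4L2, higher at an unadjusted p below 0.05, and 0 by DESeq2. The interaction gave 0 members and 0.00657% of all, with 1 higher at that p, NDUFC1, and 0 by DESeq2. In normoxia HIF1A-/- against WT cells gave 0 members and 0.657% of all, with 1 lower at that p, NDUFV1, the subunit that binds NADH, and 0 by DESeq2. NDUFV1 had 116 and 129 CPM in WT and 98.4 and 90.9 CPM in HIF1A-/- normoxia (-0.36 ± 0.16, adjusted p = 0.585). The members' medians were -0.01, 0.05 and -0.03 in these 3 comparisons. Beside NDUFA4L2, the lowest p in HIF1A-/- hypoxia belonged to COX5A (0.28 ± 0.14) and NDUFA4 (0.26 ± 0.17) on the higher side and to NDUFA11 (-0.23 ± 0.14), NDUFS6 (-0.21 ± 0.15) and NDUFC1 (-0.23 ± 0.17) on the lower. Between genotypes in normoxia these were UQCRB (0.29 ± 0.15), NDUFA13 (0.28 ± 0.17) and NDUFC1 (0.24 ± 0.17), all higher, and, beside NDUFV1, NDUFB2 (-0.31 ± 0.15) and ATP5S (-0.35 ± 0.18). None of these 10 was called with the block or by DESeq2.

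HIF1A-/- against WT cells in hypoxia again gave 0 called members by edgeR against 1.1% of all TSS regions, with 5 higher and 2 lower at an unadjusted p below 0.05. DESeq2 called 1 member, NDUFS3, and 2.13% of all. NDUFS3 had 242 and 207 TSS CPM in the normoxic WT libraries, 202 and 151 in the hypoxic WT libraries, 287 and 225 in the normoxic HIF1A-/- libraries and 316 and 246 in the hypoxic HIF1A-/- libraries. The HIF1A-/- hypoxic libraries were both above the WT hypoxic ones, at 0.65 ± 0.19 (adjusted p = 0.170), called by DESeq2 (adjusted p = 0.0995) and with the block (adjusted p = 0.00122). Without HIF1A-/- normoxia replicate 1 or replicate 2 it was also called, with adjusted p of 0.0634 and 0.0623. Its gene body was not called, with 16.2 and 9.61 CPM against 17.0 and 12.5.

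With the block 8 of 73 members (10.96%) were called at the TSS in this comparison, against 14.4% of all. NDUFS3, ATP5D, COX5A, NDUFA7 and NDUFA4L2 were higher, and NDUFV1, NDUFV2 and SDHB, the iron-sulfur subunit of complex II, were lower. NDUFV1 had 138 and 129 CPM in WT and 94.6 and 104 CPM in HIF1A-/- hypoxia (-0.44 ± 0.15, adjusted p = 0.259, with the block 0.0487). NDUFV1 and NDUFV2 work together at the NADH end of complex I, and their gene bodies were not called. NDUFA7 was called with the block in both regions, higher in each, at 0.44 ± 0.15 in the TSS region. COX5A was at 0.40 ± 0.14 and SDHB at -0.48 ± 0.21. Without WT hypoxia replicate 2, SDHB was at -0.22 and NDUFV2 at -0.19, and without HIF1A-/- hypoxia replicate 1, SDHB was at -0.28 and ATP5D at 0.31. Without HIF1A-/- hypoxia replicate 2, SDHB was at -0.73.

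The ratio of TSS to gene body reads, a pausing index per gene, brings the regions together. In WT hypoxia 58 of 73 members (79.5%) had a higher ratio, with a median log2 change of 0.21, against 47.0% of all genes and a median of -0.02. No member was called, against 0.193% of all 14494 genes, with 5 higher and 0 lower at an unadjusted p below 0.05, and neither the block nor DESeq2 called one. NDUFA12 (0.53), NDUFA13 (0.52), NDUFA3 (0.56), NDUFB7 (0.59) and UQCRH (0.55) were the 5, all with an adjusted p of 0.857. Complex I had 29 of 34 members above 0 with a median of 0.22, complex II 4 of 4, complex III 6 of 8, complex IV 9 of 11 and ATP synthase 9 of 13, while NDUFA4L2 was at -0.31. For NDUFA4L2 the TSS region covers an upstream promoter and the gene body the canonical one, so its value is not comparable. At 2 to 4 RPKM the median of all genes was 0.02 and that of 36 members 0.23. The ratio is built on the same gene body counts as above, and the replicate shift seen there enters it.

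The other comparisons of the ratio had smaller medians and no called member in the reported fit. In HIF1A-/- cells hypoxia gave a median of 0.09 (0% of all genes called), and the interaction one of 0.12 (0.0207%). HIF1A-/- against WT cells gave 0.02 in normoxia (0.0966%) and -0.12 in hypoxia (0.669%). Members at an unadjusted p below 0.05 numbered 1, 0, 2 and 2 in these comparisons, and DESeq2 called none. NDUFA4 was one of them, with a ratio that was higher by 0.70 ± 0.24 in HIF1A-/- normoxia (adjusted p = 0.655). With the block 6.62% of all genes and 1 of 73 members (1.37%) were called for HIF1A-/- against WT cells in hypoxia, ATP5SL, whose ratio was lower (-0.63, adjusted p = 0.0852).

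**Figure D5:**
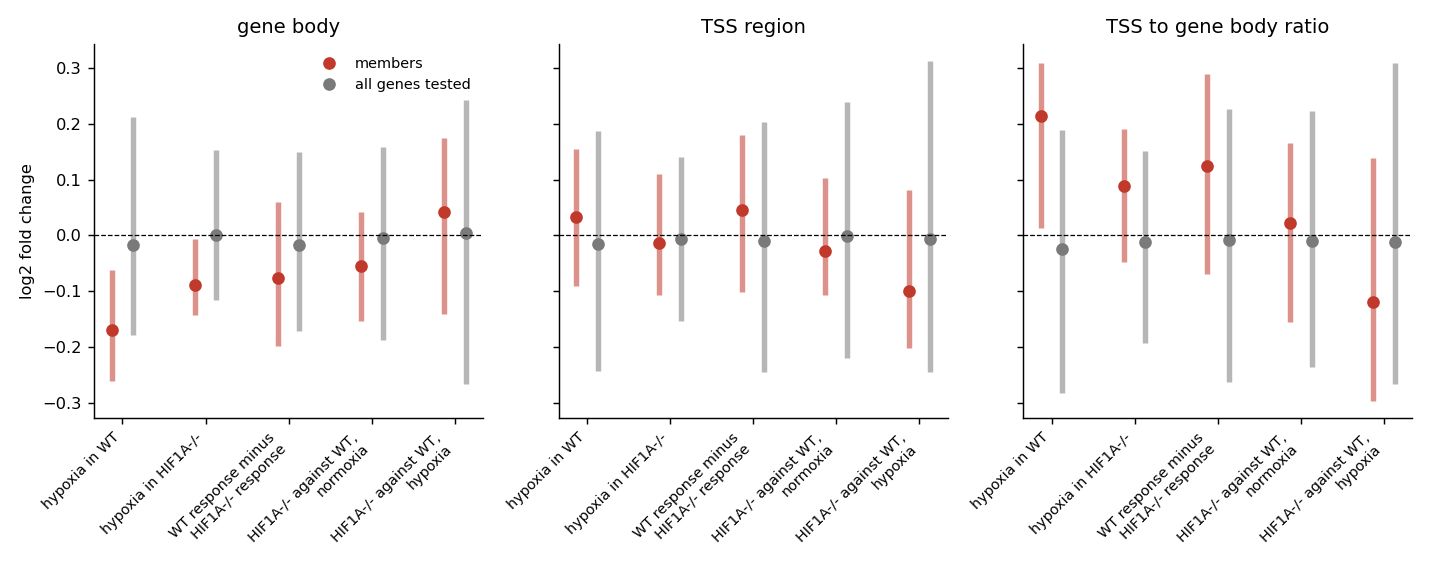
Log2 fold change in the 5 comparisons for gene bodies, TSS regions and the ratio of the regions. Points are medians and thick bars the middle of the distribution from the lower to the upper quartile, in red for members and grey for all genes tested. The members' gene body median lies lowest in WT hypoxia (-0.17) and their ratio median is highest there (0.21), while the grey medians stay near 0.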

How the data were processed

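PRO-seq libraries of 8 samples, 2 per group, were analysed. The files hold raw counts for each gene's TSS region and gene body, as deposited. To make them, the authors trimmed reads (BBDUK, FASTQ-MCF), aligned them without splicing to GRCh37 (HISAT2 2.1.0 in the submitters' processing notes), filtered on mapping quality and counted reads over RefSeq genes with featureCounts (Subread 1.6.2). One start site, the most active, and the shortest gene body were kept per gene. The gene symbols are those of the files.

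Gene bodies, TSS regions and their ratio were each fitted with edgeR 4.0.16 (R 4.3.3; TMM scaling, quasi-likelihood test, 1 mean per group, all 8 libraries, Benjamini-Hochberg over all features, FDR of 10%), on features with CPM above 0.5 in at least 2 libraries. ± after a log2 fold change is its SE. Fits were tested first on simulated libraries drawn independently, which does not cover replicates that deviate together as they do here. Members, gene lists and tests were chosen with earlier results of these data known. Named genes were NDUFA4L2, NDUFA4 and other paralogs, called members and pathway genes, the 5 highest and 5 lowest members, those that are not structural subunits, and, where under 3 were called, the 3 members of lowest p per direction whose groups did not overlap. One gene that this rule names is not reported here. Other genes named for their values were chosen after these were seen. p-values rest on 2 libraries per group. CPM and RPKM are relative to library totals, and fold changes to TMM-scaled sizes. Reads carry no correction for duplicate molecules here, so limits from counts cover counting error only. Reads of near-identical copies (SDHA, ATP5G1 to ATP5G3) could be shared. The ATP5E, ATP5J2 and NDUFC2 bodies, each wholly covered by a read-through gene, took 0 reads in every library, so no reads were shared there. Whether the read-through genes took those reads was not tested.

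Replicate numbers were taken as pairing the samples in the block only. Deviations of equal-numbered libraries correlated at 0.493 to 0.844 (bodies) and 0.217 to 0.522 (TSS regions) in all 6 pairs of groups. The reported fit did not use this pairing, so its SEs, intervals and calls include the spread between replicate numbers. The fitted common dispersion of gene bodies, a measure of that spread, was 0.0376 without the block and 0.0110 with it. The alternatives were this block, DESeq2 1.42.0, library totals, no low-count filter, CPM above 2, leaving out each library, and leaving out NDUFA4L2. Read-through genes with a hyphen (5) and genes outside the symbol rule were left out of the members.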

Additional observations from a re-analysis of the deposited data

Results flagged for a closer look

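ATP5E, the epsilon subunit of ATP synthase, was not among the members because its gene body, which lies within a read-through gene on the same strand, had 0 reads in all 8 libraries. Its TSS region nevertheless held 825 to 1431 reads per library, a signal outside the main measurement. The TSS region differed by -0.16 on the log2 scale in WT hypoxia, with an adjusted p of 0.922 by edgeR, and by 0.11 between HIF1A-/- and WT cells in hypoxia (adjusted p = 0.782 by edgeR).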

How the results depend on the processing

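Depth and replicate number set the limits: with 2 libraries per group the median SE of a member's gene body log2 fold change was 0.20, and NDUFA4L2 rests on 81 to 180 gene body reads per library. Over 13 alternative settings, 921 values kept their direction and their side of the threshold, 58 moved, 35 passed the threshold only under the alternative, and 5 reversed. The cause was not tested, except that leaving out a library leaves fewer samples.

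With the replicate number as a block, members called were 3 lower for gene bodies in WT hypoxia, 1 higher and 2 lower for HIF1A-/- against WT in normoxia, 8 higher and 6 lower in hypoxia, 5 higher and 3 lower for TSS regions in hypoxia, and 1 lower for the ratio in hypoxia, against 0 without it. The block changed no other count. For HIF1A-/- against WT in hypoxia DESeq2 called 2 gene bodies lower and 1 TSS region higher, and leaving out the low-count filter called 1 TSS region higher. Leaving out single libraries gave 0 to 1 there.

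The members' gene body median in WT hypoxia was -0.14 with library totals and -0.149 with CPM above 2, and -0.047 in HIF1A-/- hypoxia with library totals. For HIF1A-/- against WT in hypoxia it was 0.028 with the block and 0.055 without the filter. The TSS median was 0.0024 in WT hypoxia with library totals, and in HIF1A-/- hypoxia -0.013 with the block, -0.017 with DESeq2, -0.0089 with library totals and -0.013 with CPM above 2.

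When single libraries were left out, the gene body median ranged from -0.28 to -0.043 in WT hypoxia, from -0.20 to 0.053 in HIF1A-/- hypoxia, from -0.21 to 0.059 for the difference of the responses, from -0.16 to 0.077 for HIF1A-/- against WT in normoxia and from -0.10 to 0.16 in hypoxia. The TSS median ranged from -0.0077 to 0.046, from -0.045 to 0.030, from 0.0032 to 0.085 and, for HIF1A-/- against WT in hypoxia, from -0.12 to -0.044.

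NDUFA4L2 at the TSS was at 0.78 with the block for HIF1A-/- against WT in hypoxia, and then passed the threshold. Its gene body values ranged from -0.029 (without WT normoxia replicate 1) to 0.37 in WT hypoxia, from 0.041 to 0.85 in HIF1A-/- hypoxia, from 0.11 to 0.71 for HIF1A-/- against WT in hypoxia, from -0.68 to 0.13 (without HIF1A-/- normoxia replicate 1; 0.12 without HIF1A-/- hypoxia replicate 2) for the difference of the responses and from -0.22 (without HIF1A-/- normoxia replicate 2) to 0.59 for HIF1A-/- against WT in normoxia. At the TSS the latter ranged from -0.31 to 0.066 (without HIF1A-/- normoxia replicate 2).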
